A study of Mus musculus with 24 samples.

Results

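The aryl hydrocarbon receptor gene Ahr and the genes named with it, Arnt, Ahrr, Cyp1a1, Cyp1b1, Tiparp, Aldh3a1 and Nqo1, were followed across 8 groups of cells. These 8 genes were picked by symbol from the 25124 genes that 5 of the 6 deposited tables list, and all 8 were found in every table. Earlier results had already shown Aldh3a1 and Nqo1 to be lower in wt cells given TCA than in wt cells given vehicle, and Nqo1 to be lower in tetra cells given Cort. The values of these enzymes in those contrasts are therefore given as a description, and nothing is read from a count of calls that includes them. The cells were C127 (C127l in the labels), a line from a mouse mammary tumour, and total RNA was sequenced. All groups lacked their own glucocorticoid receptor (GRKO) and carried a GFP-tagged mouse receptor, either GFP-mGRwt (here wt) or GFP-mGRtetra (here tetra), a form of which the labels say no more. After 24 h in medium with 10% charcoal-stripped serum, both lines were treated for 2 h. The treatments were vehicle, corticosterone at 100 nM (Cort), TCA at 100 µM, and TCA together with Cort, with n = 3 libraries per group and 24 in all. The labels give only the letters TCA and do not spell out the compound, which may be the bile acid taurocholic acid. Each receptor form is its own line, so the form and the line cannot be told apart, and nothing in the labels says that the replicates were separate cultures. The p-values below therefore measure the spread between these libraries, which may be technical.

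AHR is a transcription factor of the bHLH-PAS family that waits in the cytosol, bound to the chaperone HSP90, until a ligand such as a dioxin, a polycyclic hydrocarbon or a tryptophan product binds it. It then enters the nucleus, pairs with ARNT and binds DNA at the core GCGTG, which raises transcription of the monooxygenase genes Cyp1a1 and Cyp1b1 and of the feedback genes Ahrr and Tiparp. AHRR competes with AHR for ARNT, TIPARP (a mono-ADP-ribosyltransferase of the PARP family) lowers the receptor's activity, and ALDH3A1 and NQO1 clear aldehydes and quinones, with Nqo1 also a target of the oxidative stress factor NRF2.

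The promoters are shown because they place the AHR core in genes that were nearly silent in these cells, and in a gene that was well expressed, beside Nqo1, whose level set the wt cells without TCA apart. RefSeq promoters (GRCm38.p6, the build that mm10 names) matched 6 of the 8 members, Ahr and Aldh3a1 being the others. The 250 bases before each start were searched on both strands for GCGTG, and capitals mark each match, with CACGC being the core on the opposite strand. Cyp1a1 lies at chr9:57697363-57697612 on the plus strand, Ahrr at chr13:74292332-74292581 on the minus strand, Tiparp at chr3:65528197-65528446 on the plus strand and Nqo1 at chr8:107403206-107403455 on the minus strand.

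Cyp1a1: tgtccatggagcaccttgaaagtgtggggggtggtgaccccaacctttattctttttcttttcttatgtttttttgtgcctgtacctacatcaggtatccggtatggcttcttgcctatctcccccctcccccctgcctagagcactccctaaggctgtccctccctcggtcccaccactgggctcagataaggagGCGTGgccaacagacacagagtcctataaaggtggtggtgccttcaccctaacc

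Ahrr: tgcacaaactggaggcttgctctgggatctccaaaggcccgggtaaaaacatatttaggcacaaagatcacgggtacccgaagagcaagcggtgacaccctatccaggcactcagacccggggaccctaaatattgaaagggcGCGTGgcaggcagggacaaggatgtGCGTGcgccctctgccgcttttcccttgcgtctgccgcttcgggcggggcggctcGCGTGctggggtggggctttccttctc

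Tiparp: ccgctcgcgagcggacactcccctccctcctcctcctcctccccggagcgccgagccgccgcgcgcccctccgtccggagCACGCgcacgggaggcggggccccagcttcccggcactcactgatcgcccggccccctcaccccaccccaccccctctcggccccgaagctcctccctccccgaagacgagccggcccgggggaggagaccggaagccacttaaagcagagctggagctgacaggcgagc

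Nqo1: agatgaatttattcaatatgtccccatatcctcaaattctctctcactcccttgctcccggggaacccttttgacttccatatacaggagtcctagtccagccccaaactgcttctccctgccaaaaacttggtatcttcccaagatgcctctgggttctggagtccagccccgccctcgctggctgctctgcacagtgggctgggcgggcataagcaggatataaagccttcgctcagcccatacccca

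The Ahrr window held the core 3 times, with first bases 107, 82 and 27 bases before the start. The Cyp1a1 window held it 54 bases before the start, Tiparp 170 bases before it, Cyp1b1 76 bases before it and Arnt 29 bases before it. Nqo1 had no match, which says only that these letters are not in this window. Of 32851 mouse promoters searched in the same way, 28.16% held GCGTG, so the core is common. The NRF2 core TGACNNNGC, found in 10.16% of promoters, was in the Arnt window only, and the glucocorticoid receptor half-site AGAACA, found in 16.08%, was in none of the 6. These matches describe letters and are not evidence of binding.

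Each library held 22.1 to 30.6 M exon reads (M, megareads). Of these, the ribosomal RNA precursor gene Rn45s took 18.2 to 22.8% in wt without TCA, 21.3 to 28.6% in wt with TCA and 19.6 to 24.0% in tetra. By the median absolute log2 difference over 12828 genes, the groups formed 3 sets, which were wt without TCA, wt with TCA, and tetra. Within a set the groups were 0.0677 to 0.0885 apart. The wt groups with and without TCA were 0.266 to 0.276 apart, tetra was 0.174 to 0.199 from wt without TCA and 0.164 to 0.186 from wt with TCA. No label names a batch, so a difference in handling shared by the 6 wt libraries with TCA cannot be told apart from TCA. The groups compared within tetra, for Cort with vehicle in wt and for the lines with vehicle do not include those libraries. Tests that join tables still share the size factors, the filter and the estimate of the spread with them. Transcripts of the glucocorticoid receptor gene Nr3c1, which cannot be assigned to the deleted or the added copy, ranged from 5265 to 6132 normalised counts in wt without TCA, from 4179 to 4310 in wt with TCA and from 4874 to 6477 in tetra. Of 7 mammary epithelial markers only Krt14 averaged at least 10 normalised counts in every group and 4 averaged under 1, while all 6 mesenchymal markers passed 10 and none of 3 hepatocyte markers did. In bulk RNA, fewer cells of a type and less RNA per cell cannot be told apart.

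Of the 8 members, 5 averaged at least 10 normalised counts and entered the tests (Ahr, Arnt, Tiparp, Aldh3a1 and Nqo1). Divided by transcript length, Nqo1 had the highest mean level over the 24 libraries, 614 normalised counts per kb, followed by Arnt with 498, Aldh3a1 with 291, Tiparp with 267 and Ahr with 48.7. That order rests on the 2 wt groups without TCA, where Nqo1 averaged 1677 (vehicle) and 1625 (Cort) and Aldh3a1 821 and 842 per kb. In the other 6 groups Arnt was highest, at 449 to 519 per kb against 213 to 307 for Nqo1, and Tiparp, at 222 to 284, lay above Aldh3a1, at 97.0 to 122. Cyp1b1 (0.818 per kb), Ahrr (0.296 per kb) and Cyp1a1 (0.0552 per kb) were near the floor. The receptor, its partner and a feedback enzyme were thus readily measured as RNA, while Cyp1a1, the usual reporter of receptor activity, was at the floor.

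Aldh3a1 encodes a cytosolic dehydrogenase of aromatic and lipid-derived aldehydes, on chromosome 11 (chr11:61208742-61218416, mm10, plus strand). In wt cells its normalised read counts were 1391, 1310.5 and 1529 with vehicle and 1517, 1385 and 1435 with Cort. They were 206, 181 and 243 with TCA and 211, 206 and 186 with TCA and Cort. In tetra cells they were 227, 156 and 170.5 with vehicle, 162, 202 and 135 with Cort, 243, 171 and 141 with TCA, and 197, 246 and 156 with both. All 6 wt libraries without TCA lay at or above 1310.5 and the rest at or below 246, so the levels formed 2 sets with no value between them. By group mean the order was wt with Cort (1445 ± 66.8, SD), wt with vehicle (1410.0 ± 110.4), wt with TCA (210.0 ± 30.9), wt with both (201 ± 13.05), tetra with both (199.7 ± 45.1), tetra with TCA (185 ± 52.5), tetra with vehicle (184 ± 37.7) and tetra with Cort (167 ± 33.6). Within each set every neighbouring pair of groups overlapped.

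Nqo1 encodes a quinone reductase that uses NADH or NADPH and is on chromosome 8 (chr8:107388225-107403205, mm10, minus strand). Its normalised read counts in wt cells were 2589, 2525 and 2656 with vehicle and 2567, 2527 and 2433 with Cort. With TCA they were 485, 449 and 489.5, and with TCA and Cort 435, 426 and 431. In tetra cells they were 544, 426 and 379 with vehicle, 368, 282 and 337 with Cort, 459, 332 and 380.2 with TCA, and 508, 409 and 317 with both. The same division held, with 6 libraries at or above 2433 and the rest at or below 544. The order of group means was wt with vehicle (2590.0 ± 65.5), wt with Cort (2509 ± 68.6), wt with TCA (475 ± 22.5), tetra with vehicle (449.9 ± 84.7), wt with both (431 ± 4.89), tetra with both (411 ± 95.8), tetra with TCA (391 ± 64.2) and tetra with Cort (329 ± 44.0), and within each set neighbouring groups overlapped.

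**Figure D1:**
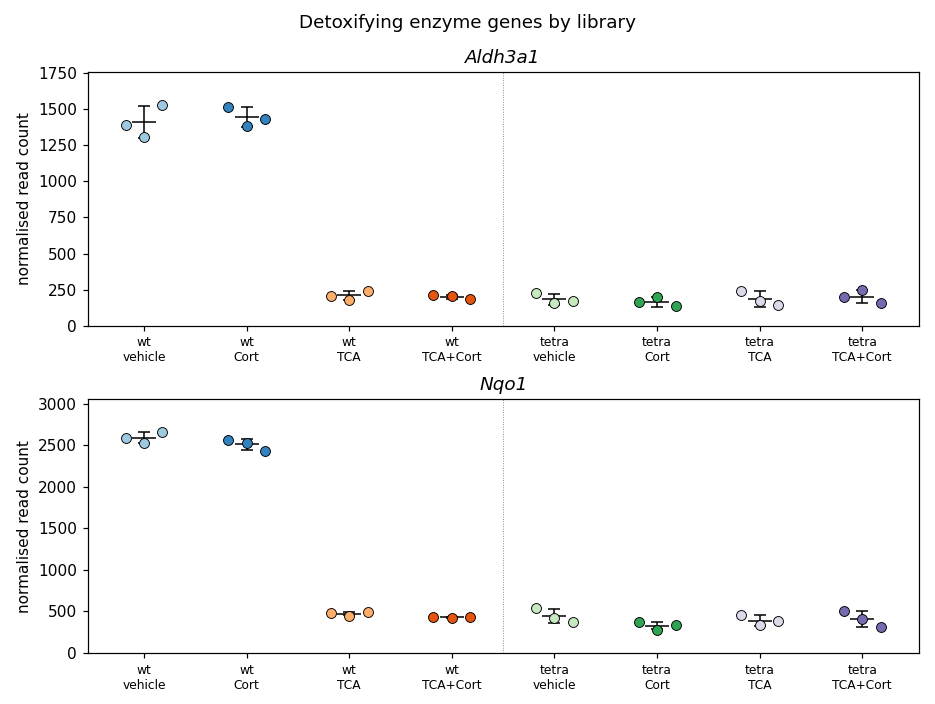
Normalised read counts (y axis, linear from 0) of Aldh3a1 and Nqo1 in each library (points) of the 8 groups (x axis), with the mean and SD of 3 libraries as black bars. The 6 wt libraries without TCA stand between 1310.5 and 1529 for Aldh3a1 and between 2433 and 2656 for Nqo1, above all the rest, which reach 246 and 544.

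In wt cells the TCA group had 6.71-fold less Aldh3a1 and 5.46-fold less Nqo1 RNA than the vehicle group, the contrast by which these genes were known. In that contrast 3 of 5 members (Aldh3a1, Nqo1 and Arnt, all lower) and 57.4% of 12725 genes passed limma's threshold, and nothing is read from the count. TCA with Cort against Cort alone uses 6 other wt libraries. There Aldh3a1 was 7.19-fold lower (log2 -2.84 ± 0.17, SE; limma adjusted p = 5.05e-14) and Nqo1 5.83-fold lower (log2 -2.54 ± 0.13; limma adjusted p = 1.87e-15), with no overlap of groups. In this comparison 4 of 5 members passed, against 56.2% of 12828 genes, so most genes of these cells differed between the same libraries. Summed mammary epithelial markers, nearly all Krt14, ranged from 913 to 1228 in wt without TCA, from 144 to 268 in wt with TCA and from 497 to 735 in tetra. Summed endothelial markers, with 1 of 3 markers averaging at least 10, ranged from 266 to 307 in wt without TCA and from 96.8 to 164 in wt with TCA, and summed immune markers, again 1 of 5, from 168 to 244 and from 85.1 to 114. In tetra these sums ranged from 151 to 235 and from 74.0 to 119. Summed mesenchymal markers, with all 6 averaging at least 10, ranged from 199088 to 226886 in wt without TCA, from 152860 to 169786 in wt with TCA and from 187380 to 239761 in tetra, and with TCA and Cort against Cort in wt 4 of the 6 were lower and 2 higher. Their part in the result was not tested.

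In tetra cells TCA left both enzymes within the spread of the libraries. Aldh3a1 with TCA stood at 1.00 times its vehicle level (95% interval 0.759 to 1.29; limma adjusted p = 0.999) and Nqo1 at 0.868 times (0.716 to 1.06; limma adjusted p = 0.941). None of the 5 members passed in that contrast, 0 also at an unadjusted p under 0.05 and 0 in limma voom, against 0.0153% of 13075 genes. With Cort present, TCA went with 1.25 times the level of Nqo1 in tetra (1.03 to 1.48; limma adjusted p = 0.527) and 1.20 times that of Aldh3a1 (0.941 to 1.52; limma adjusted p = 0.704). Again 0 of 5 members passed by limma or limma voom, against 0.078% of 12828 genes, and 2 (Arnt and Nqo1) had an unadjusted p under 0.05. Leaving out the tetra TCA and Cort library 3 brought Nqo1 past the threshold (limma adjusted p = 0.0395). The change with TCA over Cort differed between the lines by -3.10 ± 0.24 (log2, wt minus tetra) for Aldh3a1 (limma adjusted p = 3.51e-11) and by -2.84 ± 0.18 for Nqo1 (limma adjusted p = 1.12e-12). In this test 3 of 5 members passed, the last of them Ahr, against 43.6% of 12828 genes. This test and that of TCA over Cort in tetra share the tetra Cort libraries, in which Nqo1 was already known to be lower. Nothing is therefore read from their p-values for Nqo1 or from their counts of members.

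Without TCA the lines themselves differed. With vehicle, tetra cells had 7.65-fold less Aldh3a1 (log2 -2.94 ± 0.17; limma adjusted p = 6.27e-14), 5.76-fold less Nqo1 (log2 -2.54 ± 0.13; limma adjusted p = 4.26e-15) and 1.43-fold less Ahr RNA (log2 -0.51 ± 0.10; limma adjusted p = 0.000215) than wt cells. These were 3 of 5 members, against 38.5% of 12828 genes, and Arnt passed as well (limma adjusted p = 0.0442) when tetra vehicle library 2 was left out. This contrast shares the wt vehicle libraries with the one by which the enzymes were known, so nothing is read from its p-values for the enzymes or from its count of members. The wt Cort libraries, which were in none of the contrasts by which the enzymes were known, lay as high. They ranged from 1385 to 1517 for Aldh3a1 and from 2433 to 2567 for Nqo1, against 135 to 202 and 282 to 368 in tetra with Cort. The tetra Cort libraries were in the contrast by which Nqo1 was known to be lower, so for Nqo1 this is a description. The wt libraries with TCA, at 181 to 243 for Aldh3a1 and 426 to 489.5 for Nqo1, lay inside the tetra ranges of 135 to 246 and 282 to 544.

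Ahr, the receptor gene on chromosome 12 (chr12:35497979-35534989, mm10, minus strand), was lower with Cort in 3 of the 4 settings in which Cort was compared. Its normalised read counts in wt cells were 301, 332 and 362 with vehicle and 222, 247 and 226 with Cort. With TCA they were 399.9, 346 and 425, and with TCA and Cort 374, 367 and 358. In tetra cells they were 212, 224 and 262 with vehicle, 161, 142 and 150.3 with Cort, 307, 249 and 259 with TCA, and 174, 149.9 and 156 with both. All 6 tetra libraries with Cort lay below the 6 without it, and in wt this held only without TCA. By group mean the order was wt with TCA (391 ± 40.3), wt with both (366 ± 7.74), wt with vehicle (332 ± 30.6), tetra with TCA (272 ± 30.7), tetra with vehicle (233 ± 25.8), wt with Cort (232 ± 13.8), tetra with both (160.2 ± 12.7) and tetra with Cort (151 ± 9.34). The only neighbours in this order that did not overlap were wt with Cort and tetra with both.

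With Cort, Ahr fell 1.43-fold in wt (limma adjusted p = 0.00536), where it was the only called member of 5, against 2.38% of 12749 genes. That call rests on the wt vehicle library 3, without which the limma adjusted p was 0.0604. In tetra the fall was 1.54-fold (limma adjusted p = 0.00153), and 3 of 5 members, with Tiparp and the previously known Nqo1, passed against 3.34% of 12863 genes. Of these 3, Nqo1 was not called by limma voom, with no intensity trend, scaled to exon reads, or without tetra vehicle library 1 or 2 or Cort library 2 or 3. In tetra with TCA the fall with Cort was 1.70-fold (limma adjusted p = 0.00157), and Ahr was again the only called member of 5, against 1.71% of 12830 genes. In wt with TCA, Cort left Ahr at 0.938 times its level (95% interval 0.829 to 1.07; limma adjusted p = 0.626). There 0 of 5 members passed, 0 also at an unadjusted p under 0.05 and 0 in limma voom, against 0.415% of 12774 genes.

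Whether TCA altered the Cort response of Ahr was tested directly. In wt the log2 change with Cort was 0.43 ± 0.14 higher with TCA than without it (limma adjusted p = 0.138; 95% interval 0.13 to 0.72), which did not pass. No member passed in wt by limma or limma voom, against 0.522% of 12828 genes, and only Ahr had an unadjusted p under 0.05. In tetra the same difference was -0.14 ± 0.14 (limma adjusted p = 0.875), and 0 members passed by either tool, against 0% of 12828 genes, with 1 (Nqo1) at an unadjusted p under 0.05. Without TCA the lines did not differ detectably in the Cort response of Ahr (log2 difference 0.10, 95% interval -0.19 to 0.40; limma adjusted p = 0.999). Here 0 of 5 members passed by either tool, against 0.78% of 12828 genes, and 3 (Arnt, Nqo1 and Tiparp) had an unadjusted p under 0.05. This test and the one in tetra contain Cort against vehicle in tetra, where Nqo1 was already known to be lower. Nothing is therefore read from the unadjusted p of Nqo1 in either.

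With Cort present, Ahr also moved opposite to the enzymes in wt. TCA with Cort gave 1.58-fold more Ahr RNA than Cort alone (log2 0.66 ± 0.10; limma adjusted p = 3.43e-06), while in tetra it stood at 1.06 times (0.916 to 1.22; limma adjusted p = 0.883). The difference between lines was 0.58 ± 0.14 on the log2 scale (limma adjusted p = 0.00181). TCA alone against vehicle gave 1.18 times the Ahr level in wt, as a description, and 1.17 times in tetra (0.986 to 1.38; limma adjusted p = 0.941). In both lines the TCA and vehicle groups overlapped. A long non-coding RNA gene on the opposite strand overlaps the start of Ahr, and since no strand setting for counting is given in the sources used here, its reads could be counted in Ahr.

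Arnt, which encodes the partner that AHR needs on DNA and which hypoxia factors also use, is on chromosome 3 (chr3:95434390-95497239, mm10, plus strand). It was the steadiest of the tested members, from 1836 to 2484 normalised counts over the 24 libraries. In wt cells its values were 2484, 2385 and 2296 with vehicle, 2220.5, 2202 and 2164 with Cort, 2006, 2032 and 2004 with TCA, and 1836, 2048 and 1963 with both. The wt libraries with TCA thus lay below all the other wt libraries, and TCA with Cort against Cort was 1.13-fold lower (log2 -0.17 ± 0.05; limma adjusted p = 0.00395). TCA alone against vehicle was 1.19-fold lower in wt, as a description. In tetra the 12 libraries ranged from 2078 to 2335 with a median of 2178, and no contrast within tetra passed (limma adjusted p from 0.552 to 0.987). By group mean the order was wt with vehicle (2388 ± 94.0), tetra with Cort (2256 ± 35.6), tetra with vehicle (2219 ± 108), tetra with TCA (2198 ± 101), wt with Cort (2196 ± 29.0), tetra with both (2091 ± 18.0), wt with TCA (2014 ± 15.6) and wt with both (1949 ± 107).

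Tiparp, the PARP family gene that AHR induces and whose protein then restrains AHR, is on chromosome 3 as well (chr3:65528447-65555518, mm10, plus strand). Its normalised read counts in tetra were 1383, 1030.1 and 1118 with vehicle, 911, 861 and 988 with Cort, 1288, 1092 and 955 with TCA, and 969.9, 1073 and 889 with both. The 3 tetra libraries with Cort alone lay below those with vehicle, while the groups with TCA overlapped. The fall with Cort was 1.28-fold (limma adjusted p = 0.0281) and passed no longer when libraries were scaled to exon reads (limma adjusted p = 0.0647). It was also lost without vehicle library 1 (limma adjusted p = 0.168), Cort library 1 (limma adjusted p = 0.0825) or Cort library 2 (limma adjusted p = 0.0765). In wt the 12 libraries lay between 1083 and 1296, and Tiparp passed in no tested contrast of wt groups, nor between the lines with vehicle (limma adjusted p = 0.841). Means ran from 1205 ± 80.4 in wt with Cort through 1191 ± 43.2 in wt with vehicle, 1177 ± 184 in tetra with vehicle, 1141 ± 23.9 in wt with TCA, 1127 ± 38.3 in wt with both, 1112 ± 167 in tetra with TCA and 977 ± 92.2 in tetra with both to 920.3 ± 64.1 in tetra with Cort, every neighbouring pair overlapping. A transcribed pseudogene on the opposite strand, 4931440P22Rik, overlaps the start of Tiparp and had at most 231 reads in a library, against at least 834 for Tiparp.

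**Figure D2:**
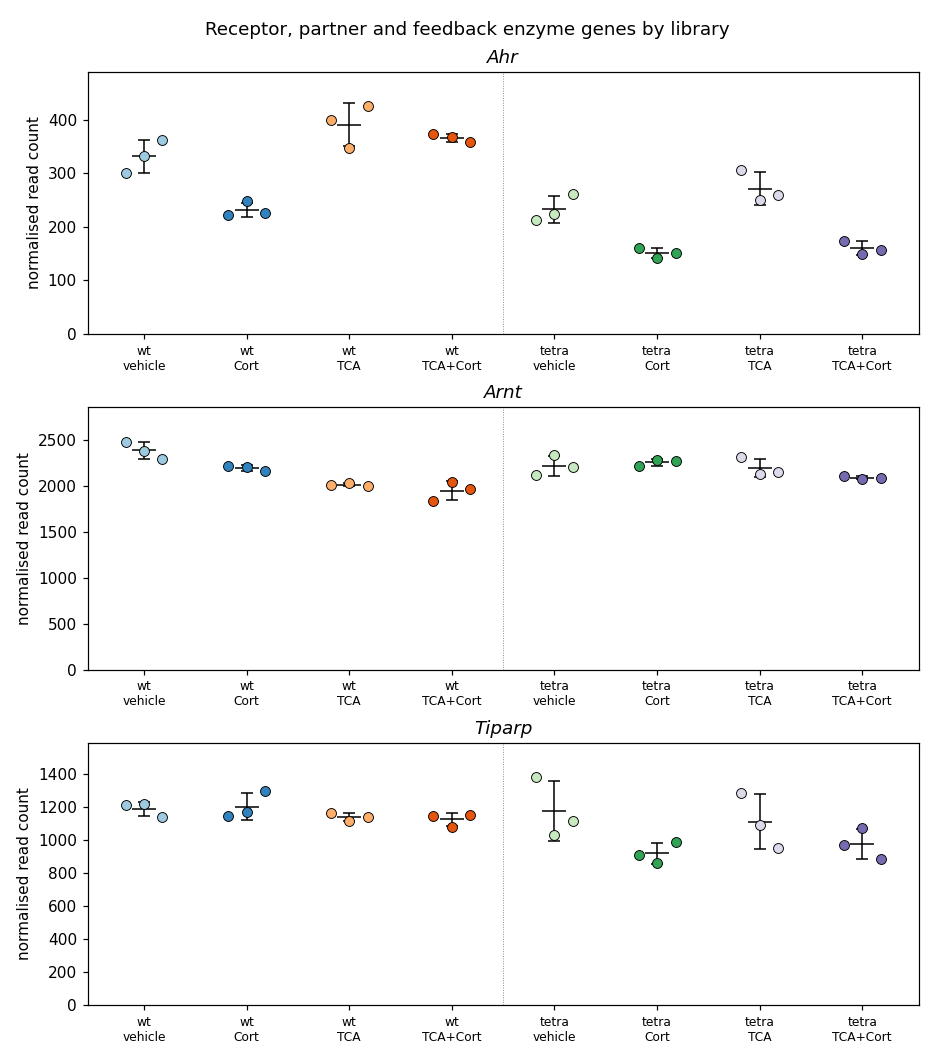
Normalised read counts (y axis, linear from 0) of Ahr, Arnt and Tiparp in each library (points) of the 8 groups (x axis), with the mean and SD of 3 libraries as black bars. Ahr lies at 142 to 174 in the 6 tetra libraries with Cort and at 212 to 307 in the 6 without, while Arnt stays between 1836 and 2484.

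Nqo1 in tetra was 1.37-fold lower with Cort than with vehicle, the value already known, and with TCA present Cort left it at 1.05 times (95% interval 0.838 to 1.30; limma adjusted p = 0.976). In wt Cort left Nqo1 at 0.969 times (0.910 to 1.05; limma adjusted p = 0.809) and Aldh3a1 at 1.03 times its vehicle level (0.946 to 1.13; limma adjusted p = 0.787). Cort therefore went with no detected change of either enzyme in wt, within intervals of that width.

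**Figure D3:**
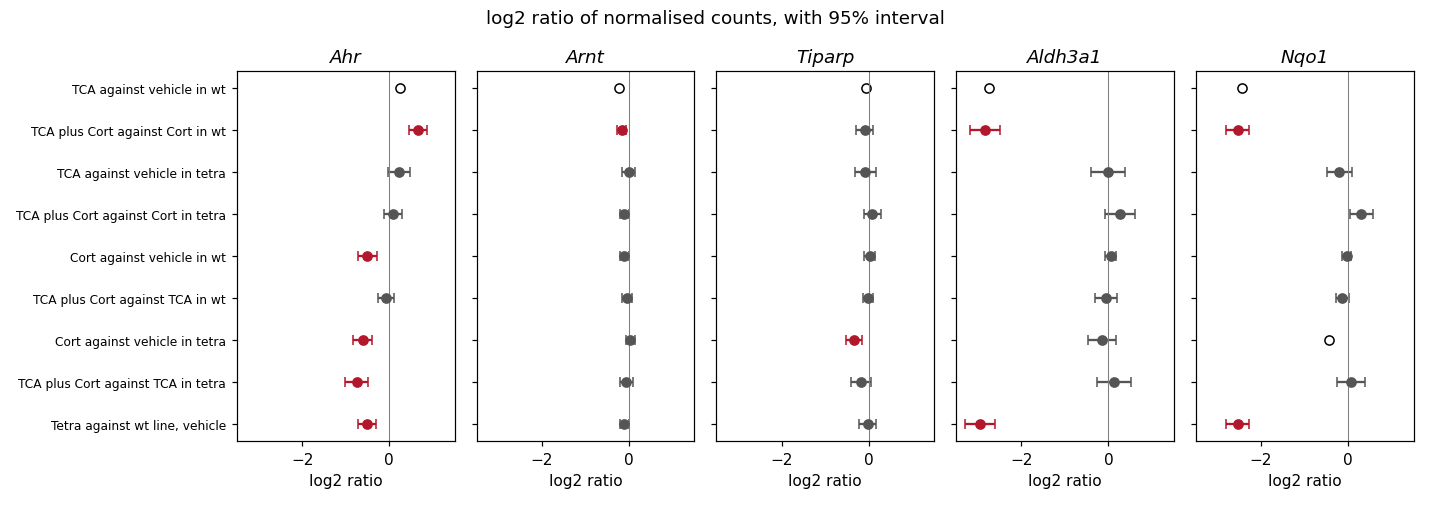
The log2 ratio of normalised counts (x axis) for the 5 tested members in 9 comparisons (rows), with 95% intervals from limma; red points passed an adjusted p of 0.05 on the scale used for the test, grey points did not, and open points are descriptions with no test. Aldh3a1 and Nqo1 are displaced by more than 2 log2 units only where wt libraries without TCA are set against wt with TCA or tetra, and Ahr is displaced to lower values in 3 of the 4 comparisons of Cort.

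The inducible monooxygenase and repressor genes gave almost no reads. Cyp1a1, the classical AHR target (chr9:57697613-57703824, mm10, plus strand), had 2, 1 and 0 reads in the wt vehicle libraries and 0 in the other 21, 3 reads in all. A count of 0 allows up to 3 reads, or 0.0981 to 0.136 CPM of exon reads in these libraries, and covers counting error only. Ahrr, the repressor (chr13:74211118-74292331, mm10, minus strand), had between 0 and 5 reads, 32 in all, and 23 of 24 libraries were at or under 3. Both were under the mean of 10 normalised counts needed for a test. With no filter on low counts, limma called Cyp1a1 lower in tetra than in wt with vehicle, which sets 3 reads against 0, a difference within the floor.

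Cyp1b1, a monooxygenase that activates hydrocarbons and hydroxylates oestrogens (chr17:79706941-79715061, mm10, minus strand), had 100 reads in the 24 libraries. In wt cells it had 8, 6 and 7 reads with vehicle, 9, 5 and 11 with Cort, 1, 2 and 1 with TCA, and 5, 1 and 3 with both. In tetra it had 3, 5 and 2 with vehicle, 2, 3 and 2 with Cort, 6, 4 and 0 with TCA, and 8, 4 and 2 with both. The 6 wt libraries without TCA summed to 46 reads, the 6 wt libraries with TCA to 13 and the 12 tetra libraries to 41. Its mean was under 10 normalised counts, so it was not tested, and the reads are too few for a fold change of single groups.

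**Figure D4:**
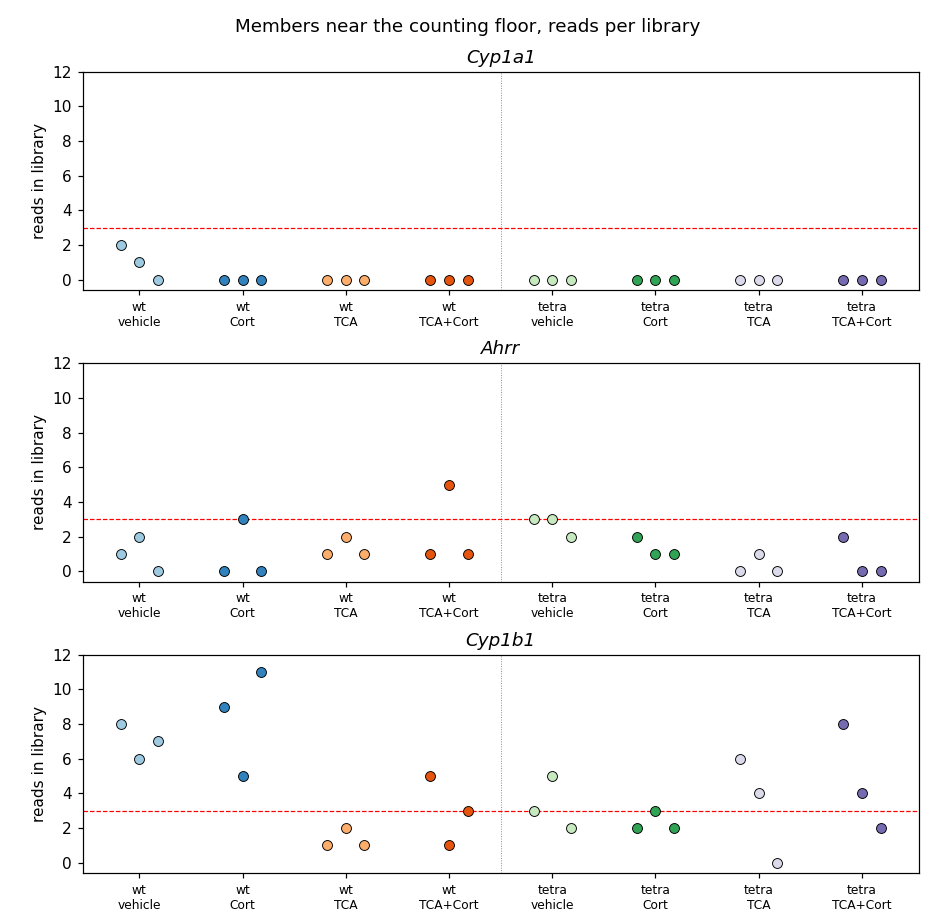
Reads per library (y axis) of Cyp1a1, Ahrr and Cyp1b1 in the 8 groups (x axis), each point a library, with a dashed line at the floor of 3 reads. Cyp1a1 exceeds 0 in 2 wt vehicle libraries only, and the highest count of the 3 genes is 11 reads of Cyp1b1.

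Genes that hold, assist or oppose AHR were read from a list of 12, all tested. In wt cells with TCA and Cort against Cort, 3 rose and 5 fell, where 56.2% of all genes were called, with a median log2 difference of -0.07 beside -0.01 for all genes. The chaperone genes Hsp90aa1 (1.33-fold; 10647 to 14176 normalised counts; limma adjusted p = 6.81e-05) and Ptges3, which encodes the HSP90 co-chaperone p23 (1.29-fold; limma adjusted p = 1.12e-05), rose. Klf6, a zinc finger factor that can bind AHR (2.08-fold; limma adjusted p = 2.65e-12), and the coactivator gene Ncoa2 (1.32-fold; limma adjusted p = 1.25e-06) fell. Between the lines with vehicle the same list gave 3 higher and 5 lower in tetra, where 38.5% of all genes were called. With Cort alone in wt, Relb, an NF-kappaB subunit that can pair with AHR, was 1.39-fold lower (limma adjusted p = 0.0340). It was the only one called of the 11 tested, where 2.38% of all genes were called.

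Of 16 further genes known to rise with AHR ligands, 10 were tested. With TCA and Cort against Cort in wt 4 rose and 5 fell, where 56.2% of all genes were called, with a median log2 difference of -0.05 beside -0.01 for all genes. The amino acid carrier gene Slc7a5 (2.22-fold; limma adjusted p = 5.48e-15), the growth factor gene Ereg (1.92-fold; limma adjusted p = 1.30e-09) and Socs2, a brake on cytokine signalling (3.02-fold; 13.7 ± 4.09 to 41.5 ± 2.94 normalised counts; limma adjusted p = 2.60e-06), rose. The glucuronosyltransferase genes Ugt1a6a (1.78-fold) and Ugt1a6b (1.82-fold) and xanthine dehydrogenase, Xdh (1.54-fold; limma adjusted p = 2.90e-08), fell. Ugt1a6a and Ugt1a6b share exons, so their counts are uncertain. Genes of this list thus moved in both directions in wt. In tetra with vehicle against wt with vehicle, 3 of these 10 were higher and 6 lower, where 38.5% of all genes were called, with Xdh 2.60-fold lower (limma adjusted p = 8.18e-15) and Slc7a5 1.56-fold higher (limma adjusted p = 1.81e-09). With Cort in tetra, Socs2 rose 1.76-fold (limma adjusted p = 0.0312), the only one called of the 10, where 3.34% of all genes were called.

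NRF2 genes, which share control of Nqo1, were read from a list of 20, all tested. In wt 13 fell and 4 rose with TCA and Cort against Cort, with a median log2 difference of -0.24. Of all genes 56.2% were called there, 3600 lower and 3614 higher, with a median of -0.01. The glutathione transferase gene Gstm1 fell 2.23-fold (limma adjusted p = 1.43e-12) and the pentose phosphate gene Pgd 1.56-fold (limma adjusted p = 1.61e-12), while Slc7a11, the cystine importer, rose 1.90-fold (limma adjusted p = 2.66e-12). Between the lines with vehicle 16 were lower in tetra and 2 higher, with a median of -0.50, where 38.5% of all genes were called, 2527 lower and 2414 higher, with a median of 0.01, and the haem oxygenase gene Hmox1 was 2.69-fold lower (limma adjusted p = 1.58e-14). Hmox1 also fell 1.25-fold with Cort in tetra (limma adjusted p = 0.0147), the only one called of the 20, where 3.34% of all genes were called.

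Relatives of the enzymes and of the partner moved in part. Of 8 tested of 11 aldehyde dehydrogenase and quinone reductase relatives, 5 fell and 1 rose with TCA and Cort against Cort in wt, where 56.2% of all genes were called, with a median log2 difference of -0.54. Aldh1a1, a retinal dehydrogenase, fell 3.44-fold (limma adjusted p = 6.58e-19) and its close copy Aldh1a7 2.09-fold (limma adjusted p = 5.63e-14), and reads of this pair may be shared. With Cort in wt both were higher, Aldh1a1 1.27-fold (limma adjusted p = 0.000293) and Aldh1a7 1.20-fold (limma adjusted p = 0.0212). They were the only 2 called of the 8 tested, where 2.38% of all genes were called. Of 12 PARP genes related to Tiparp, 7 fell and 3 rose with TCA and Cort against Cort in wt, where 56.2% of all genes were called. Their median log2 difference was -0.41 beside -0.01 for all genes. The smallest p-values were those of Parp3 (2.34-fold lower; limma adjusted p = 1.96e-13) and Parp4 (1.99-fold lower; limma adjusted p = 2.19e-12). Of 10 bHLH-PAS relatives 5 were tested in that comparison, with the same share of all genes called. The clock genes Arntl (1.17-fold; limma adjusted p = 0.0192) and Clock (1.12-fold; limma adjusted p = 0.0391) were higher and Arntl2 lower (1.45-fold; limma adjusted p = 0.00339). In tetra, none of the 65 tested genes of these 6 lists was called by limma with TCA against vehicle or with TCA and Cort against Cort. Of all genes only 0.0153% and 0.078% were called there, so nothing is read from this count. At an unadjusted p under 0.05 there were 4 (TCA against vehicle) and 9 (TCA with Cort against Cort).

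The genes whose levels followed each member most closely over the 24 libraries were ranked by Pearson r of log2 counts among 11127 genes, as a description, since libraries share line, treatment and depth. For Aldh3a1 they were Lamp1 (r = 0.986), Ctsd (0.986) and Nqo1 (0.985), and for Nqo1 they were Ctsd (0.988), Tatdn2 (0.987) and Ctsb (0.985). The libraries fall into the same 2 sets for all of these genes, so r mainly records that separation. Lamp1, a lysosome membrane gene, averaged 16475 normalised counts in wt with vehicle, 15726 in wt with Cort and between 8568 and 9418 in the other 6 groups. Ctsd, a lysosomal protease gene, averaged 13999 and 13511 in those wt groups and between 6486 and 7701 in the others. For Ahr the closest genes were the Wnt receptor gene Fzd7 (r = 0.925), the zinc finger gene Klf10 (0.919) and the neurotrophin gene Bdnf (0.910). For Arnt they were Copa (0.862), Vps8 (0.855) and Capn2 (0.854), and for Tiparp Ier3 (0.801), 1810013L24Rik (0.728) and Uprt (0.709). Ahr itself had r = 0.205 with Aldh3a1 and 0.250 with Nqo1, and Aldh3a1 and Nqo1 had r = 0.444 and 0.443 with Arnt.

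The authors' deposited table for TCA against vehicle in wt gives Nqo1 a log2 fold change of -1.09 with an adjusted p of 0.871 and Aldh3a1 -1.08 with an adjusted p of 0.909. The header of that authors' deposited table lists 5 group labels for its 6 libraries, and the normalised counts and folds given earlier follow the sample labels instead. Read in column order, the header labels count the last wt vehicle library (Nqo1 2656, Aldh3a1 1529 normalised counts) as TCA. They leave the last wt library with TCA without a label. Whether the deposited fold changes were made with that grouping was not tested, so they are not set against the falls given earlier. The authors' deposited table for Cort in tetra gives Ahr -0.62 (adjusted p = 0.000760), Tiparp -0.35 (adjusted p = 0.0101) and Nqo1 -0.45 (adjusted p = 0.0254). The authors' deposited table for Cort in wt gives Ahr -0.51 (adjusted p = 0.00479), and that for TCA with Cort against TCA in tetra gives Ahr -0.76 (adjusted p = 7.64e-05).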

How the data were processed

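Total RNA from 24 samples was sequenced after ribosomal RNA removal (TruSeq Stranded, Ribo-Zero Plus, per the labels' protocols). Per the submitters' processing notes, cutadapt, STAR 2.7.0f, HOMER 4.10.4 and mm10 were used, and the strand setting for counting is not given in the sources used here. The authors deposited 6 tables of 6 libraries, each holding log2-like, variance-stabilised expression values made table by table, per the file headers, beside the transcript length (the other column used) and their own fold changes on a log2 scale with p-values. That scale was inverted to recover the read counts, with 100% of those below 1000 falling within 0.01 of an integer. The tables of TCA and vehicle repeat libraries of the other 4 tables, which were joined so that each library stands once, and were scaled by median-ratio size factors (0.850 to 1.22). Normalised counts, folds (ratios of group means) and SD come from this set. A floor of 3 counts equals 2.47 to 3.53 normalised counts. No pair of libraries of a group matched within counting noise (24 pairs, chi-square 2.38 to 33.8 per gene).

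Comparisons within a table were tested with limma 3.58.1 (R 4.3.3, intensity trend) on the deposited values, for genes averaging 10 or more normalised counts. The deposited scale understates changes of low genes, so intervals are from log2(normalised count + 1). Comparisons that join tables, and differences between comparisons, used limma on log2(normalised count + 1) in a model of all 8 groups. Adjusted p-values are Benjamini-Hochberg values over all genes tested, called below 0.05. Count models were not used because the deposited unit is log2, and limma voom on recovered counts was an alternative, with other scaling, filters, pseudocounts (1 or 0.5), no trend, a replicate block and leaving out each library. The scripts were tested on simulated data. The table of TCA in tetra holds 26188 genes under a newer annotation.

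The members, gene lists and tests were chosen with earlier results of these data known. The genes named are all 8 members, the 3 closest genes to each tested member, the 3 list genes with the smallest p in a comparison, and called genes of the lists of AHR partners and AHR-inducible genes. Comparing the Cort response with and without TCA was added after values had been seen. Sequences are RefSeq promoters (GRCm38.p6), and overlapping genes are from GENCODE vM21. Python 3.11.15, pandas 2.3.3 and matplotlib 3.10.9 were used. A gene that the lists count is not reported here by name.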

Additional observations from a re-analysis of the deposited data

Results flagged for a closer look

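The change with TCA over Cort differed between the wt and tetra lines for 3 members, by limma's test of the difference itself. For Aldh3a1 the log2 difference (wt minus tetra) was -3.10, for Nqo1 it was -2.84 and for Ahr it was 0.58. Leaving out each library in turn kept these between -3.26 and -2.93, between -3.02 and -2.68, and between 0.53 and 0.64. The Nqo1 value draws on the tetra Cort libraries, in which Nqo1 was already known to be lower, so nothing is read from its p-value. For Aldh3a1 and Nqo1 the wt libraries with TCA lie inside the tetra ranges and the wt libraries with Cort alone lie above both. In wt, TCA with Cort and Cort alone differed in 56.2% of all genes.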

How the results depend on the processing

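Of the 490 results for single members under other settings 478 kept their direction and their side of the threshold, and of the 510 with a library left out 474 did. The values that changed sign belonged to differences that had not passed. These were, scaled to exon reads, Nqo1 with Cort in wt (0.0258), Arnt and Aldh3a1 with TCA in tetra (0.01 and 0.0099), Tiparp between lines (0.0537) and Arnt in the Cort response with and without TCA in wt (-0.0377), and, by limma voom, Aldh3a1 with TCA in tetra (0.0211). With a library left out the log2 differences that changed sign ranged as follows: Cort in wt, Aldh3a1 -0.0010 to 0.0725 and Tiparp -0.0188 to 0.0396; TCA with Cort against TCA in wt, Aldh3a1 -0.0607 to 0.0202 and Tiparp -0.0242 to 0.0081; TCA in tetra, Arnt -0.0428 to 0.0223, Aldh3a1 -0.101 to 0.0777 and Tiparp -0.152 to 0.0306; Cort in tetra, Arnt -0.0065 to 0.0484 and Aldh3a1 -0.0972 to 0.0063; TCA with Cort against TCA in tetra, Aldh3a1 -0.0244 to 0.151 and Nqo1 -0.0593 to 0.142; lines with vehicle, Tiparp -0.150 to 0.0617; the Cort response with and without TCA in wt, Aldh3a1 -0.191 to 0.0169 and Tiparp -0.0664 to 0.0213. The cause was not tested.

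Members called with Cort in tetra fell from 3 to 1 scaled to exon reads and lay between 1 and 3 with a library left out. With Cort in wt they lay between 0 and 1, and with TCA over Cort in tetra between 0 and 1. With no filter on low counts, Cyp1b1 was also called with TCA in wt (4 members in place of 3) and with TCA and Cort against Cort in wt (5 in place of 4), and Cyp1a1 between the lines with vehicle (4 in place of 3). All-gene counts moved most where few genes passed. TCA in tetra called 2 genes, 1 scaled to exon reads, 5 with no filter, 11 with the replicate block and 1 to 6 with a library left out. TCA with Cort against TCA in wt called 53, 16 scaled to exon reads, 9 with the replicate block and 6 to 2570 with a library left out, the highest without wt TCA library 3. TCA with Cort against Cort in tetra called 10, 2 with no trend and 2 to 258 with a library left out, the highest without tetra TCA and Cort library 3. Cort in wt called 304, and 148 to 499 with a library left out. The Cort response with and without TCA in wt called 67, 37 with no filter, 27 with no trend, 449 with only its own groups and 29 to 465 with a library left out, and in tetra 0, and 0 to 1. Same-numbered pairs of libraries had r from -0.151 to 0.247, and in no comparison did all 3 pairs correlate above 0.1. This cannot exclude that the replicate numbers pair the libraries. The replicate block otherwise changed none of the counts of members by more than 1.5 times. Depth limits Cyp1a1, Ahrr and Cyp1b1, and the call of Cyp1a1 rests on 3 reads.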
